A study of Mus musculus with 6 samples.

Results

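First-intron peaks are regions of open chromatin that lie in the intron following the first exon of a transcript. The series measured chromatin accessibility by ATAC-seq. Its 2 populations were microglia (MG), which live in the brain, and macrophages of bone marrow origin (BMDM), both obtained by cell sorting from mouse brain tumours, with 3 libraries of each. From the authors' table of peaks, every distinct peak was taken whose annotation opened with the word intron and named intron 1 of its transcript. The rule found 11148 of 92864 annotated peaks, and it used no read count. Every peak carried values in MG 1 to 3 and BMDM 1 to 3. All 6 libraries came from WT mice that bore isogenic, orthotopically grown SB28 tumours (SB28 is a mouse glioma line), and no tumour-free group is compared here. Both gates took cells positive for F4/80 and CD11b, without LY6G and with low or absent LY6C. MG were CD45lo with low or no CD49d, whereas BMDM were CD45+ and CD49dhigh. Whether the 3 libraries of a population stem from different mice is not stated, and each p-value below therefore reflects library-to-library spread, which may be technical.

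ATAC-seq uses a transposase that inserts sequencing adapters where DNA is not covered by nucleosomes, so the number of reads in a peak tracks how open a site is. First introns are known to hold many enhancers, binding sites for lineage transcription factors and alternative promoters that act on the gene around them or on a neighbour. In macrophages and microglia, distal elements of this kind are known to differ more between cell origins and tissues than the promoters of the same genes do. An open site does not show by itself which gene it acts on.

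The authors' annotation gives promoter status to any peak within 3 kb of a start site before it considers introns. The first-intron peaks were therefore distal members of their introns: none lay closer than 3003 bp to the nearest start, and the median distance was 13.2 kb. They fell beside the start sites of 4108 genes with a symbol, and peaks without a symbol were counted together as 1 further entry. Of these entries, 1870 (45.5%) had 1 such peak and 137 had 10 or more. Peaks of 1 intron share a locus and are not replicates of each other. The transcript that carried the intron belonged to the gene of the nearest start for 8651 peaks (77.6%) and to another gene for 1119, and for 1378 peaks the transcript had no gene ID. A peak is named here by the nearest start. A single transcript model of Galnt2 on chromosome 8 took 336 of the peaks (3.01%) over 4.326 Mb, while the next widest set spanned 594.4 kb. Those 336 peaks lay beside 55 genes, among them Gse1 (49 peaks), Ankrd11 (31), Irf8 (24) and Galnt2 itself (18), and calling them first-intron rests on that 1 model.

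Some first-intron peaks overlapped an annotated promoter. Of the 11148 peaks, 72 shared at least 100 bases with a RefSeq promoter window (250 bases before to 50 after a start, GRCm38.p6), and 71 of these were tested for a difference between groups. Their median log2 difference (BMDM minus MG) relative to the median peak was -0.10, with 3 passing the test described below in the BMDM direction and 2 in the MG direction, beside 6.74% and 0.925% of all tested first-intron peaks. The shared bases of these 5 called peaks are shown because they are the members with a difference between the groups for which a RefSeq window gave sequence. Capitals mark matches, on either strand, to letters recognised by factors of myeloid cells: TGANTCA for AP-1, TTGCNNAA for C/EBP, GAGGAA for PU.1, TGTGGT for RUNX and GAAANNGAA for IRF. Each motif was searched separately, so matches could overlap. The Chst12 peak (chr5:140517293-140518132) shared bases 140518030 to 140518132 of chromosome 5 with the window of Gm38728, read on the minus strand.
Chst12: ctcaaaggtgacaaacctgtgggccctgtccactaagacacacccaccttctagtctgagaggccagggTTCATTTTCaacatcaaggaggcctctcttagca
The Irf8 peak (chr8:120786565-120787116), in the Galnt2 transcript model, held the whole window of Gm33199, bases 120786737 to 120787036 on the plus strand.
Irf8: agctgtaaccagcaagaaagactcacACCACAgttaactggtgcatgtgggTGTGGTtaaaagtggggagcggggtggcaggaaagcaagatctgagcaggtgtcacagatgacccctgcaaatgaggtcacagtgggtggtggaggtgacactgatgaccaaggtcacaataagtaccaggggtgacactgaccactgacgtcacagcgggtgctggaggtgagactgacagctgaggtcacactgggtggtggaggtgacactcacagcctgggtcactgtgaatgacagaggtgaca
The Gab1 peak (chr8:80813187-80814434) held that of Gm51580, bases 80813849 to 80814148 on the plus strand.
Gab1: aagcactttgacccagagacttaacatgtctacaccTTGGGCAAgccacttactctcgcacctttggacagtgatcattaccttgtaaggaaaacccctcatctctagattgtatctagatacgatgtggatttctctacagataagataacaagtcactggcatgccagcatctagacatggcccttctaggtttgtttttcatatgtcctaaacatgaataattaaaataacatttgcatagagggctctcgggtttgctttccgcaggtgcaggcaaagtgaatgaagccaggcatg
A peak in the first intron of Prkce, nearest to 2010106C02Rik (chr17:86242713-86243778), held that of Gm52296, bases 86243257 to 86243556 of chromosome 17 on the minus strand.
Prkce: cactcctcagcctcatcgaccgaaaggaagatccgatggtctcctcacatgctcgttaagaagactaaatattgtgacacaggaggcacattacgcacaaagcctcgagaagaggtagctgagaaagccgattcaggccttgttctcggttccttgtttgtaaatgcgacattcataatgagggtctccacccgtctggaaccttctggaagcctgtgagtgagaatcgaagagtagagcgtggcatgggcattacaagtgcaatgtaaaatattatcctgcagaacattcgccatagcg
The Trim2 peak (chr3:84228262-84229473) held that of Gm40078, bases 84228700 to 84228999 of chromosome 3 on the plus strand.
Trim2: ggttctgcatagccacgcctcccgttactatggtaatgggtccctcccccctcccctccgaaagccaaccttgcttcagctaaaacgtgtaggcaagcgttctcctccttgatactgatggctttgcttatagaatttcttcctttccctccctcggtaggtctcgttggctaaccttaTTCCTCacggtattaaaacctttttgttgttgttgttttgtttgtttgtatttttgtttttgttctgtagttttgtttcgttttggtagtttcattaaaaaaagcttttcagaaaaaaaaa

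The Irf8 window held 2 RUNX matches, the Gab1 window 1 C/EBP match, the Trim2 window 1 PU.1 match and the Chst12 bases 1 IRF match, and the Prkce window held none. Over all 32851 RefSeq promoter windows, RUNX letters occurred in 16.8%, C/EBP letters in 10.8%, PU.1 letters in 28.3%, AP-1 letters in 7.81% and IRF letters in 8.56%. In the 103 bases at the place of the Chst12 overlap, IRF letters occurred in 2.83% of windows. These matches describe the letters and say nothing of binding. The G+C content of the shared bases was 51.5% at Chst12, 54.7% at Irf8, 43.0% at Gab1, 48.0% at Prkce and 41.3% at Trim2, beside a median of 52.7% over all windows.

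These 5 peaks were singled out after their values were seen. Gab1 encodes a scaffold of receptor tyrosine kinase signalling. Its peak, 16450 bp from the nearest Gab1 start, held normalized read counts (reads divided by the authors' size factor of the library) of 88.9, 217 and 142 in MG 1 to 3 and 27.8, 40.8 and 47.1 in BMDM 1 to 3, so every MG library was above every BMDM library (log2 difference -1.73, SE 0.39, adjusted p = 0.0308; limma with Benjamini-Hochberg adjustment). Irf8 encodes a transcription factor needed for monocytes, macrophages and microglia. At its peak, 34356 bp from the Irf8 start, counts were 19.8, 25.1 and 27.2 in MG 1 to 3 and 57.5, 126 and 77.9 in BMDM 1 to 3 (log2 difference 1.89, SE 0.38, adjusted p = 0.0324 by limma), with BMDM above MG throughout. In the Prkce intron, which belongs to a gene for a protein kinase C, the peak beside 2010106C02Rik held 55.5, 49.7 and 41.8 in MG 1 to 3 and 161, 192 and 102 in BMDM 1 to 3 (log2 difference 1.70, SE 0.34, adjusted p = 0.0321 by limma). Trim2, a ubiquitin ligase gene, went the other way with 299, 296 and 256 in MG 1 to 3 and 137, 142 and 102 in BMDM 1 to 3 (log2 difference -1.03, SE 0.29, adjusted p = 0.0432 by limma).

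Libraries held from 4910448 (BMDM 3) to 23601865 (MG 2) reads in peaks, of which 353005 to 1452565 fell in first-intron peaks, and the median first-intron peak held 18 to 67 reads. A count of 3 reads corresponded to 1.64 to 5.95 normalized counts, which limits what can be read from the lowest values. Among first-intron peaks, the correlation of log2 values was 0.62 to 0.89 within MG, 0.85 to 0.90 within BMDM and 0.55 to 0.80 between the groups. The lowest value within a group, 0.62, was between MG 1 and MG 2. MG 1 correlated with MG 3 at 0.83 and with BMDM 1 at 0.80. MG 2 correlated with MG 3 at 0.89 and with the BMDM libraries at 0.55 to 0.66. Replicates differed by more than counting noise, with chi-square per degree of freedom from 4.80 to 37.3. Marker genes were read over all their peaks to check the labels. Summed counts at 42 microglia identity genes, all with a peak, ranged from 58734.4 to 102209.8 in MG and from 44022.2 to 69371.9 in BMDM. At 40 of 42 monocyte and macrophage identity genes with a peak they ranged from 34090.9 to 44035.8 in MG and from 38089.2 to 66729.6 in BMDM, and at the 6 of 7 sort marker genes with a peak from 4144.5 to 7844.9 and from 5858.8 to 10370.8. Ranges thus overlapped for each of these lists, and sort marker genes had no first-intron peak. In sorted bulk cells, fewer cells of a type and less open chromatin per cell cannot be told apart.

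First-intron peaks were weak beside promoters and close in level to other distal peaks. Their median of the mean normalized count was 37.4, against 208.6 for promoter peaks within 1 kb, 31.7 for later introns and 34.8 for distal intergenic peaks. Median width was 522 bp, against 1071 bp at promoters, 507.5 bp in later introns and 534 bp between genes. Reads in first-intron peaks made up 5.42%, 6.15% and 5.67% of all reads in peaks in MG 1 to 3 and 6.42%, 6.73% and 7.19% in BMDM 1 to 3. BMDM libraries were all above MG libraries. Mean shares were 5.75% ± 0.37 (SD, n = 3) and 6.78% ± 0.39 (SD, n = 3), a difference of 1.03 percentage points with an exact two-sided permutation p of 0.1, the smallest that 3 against 3 can give. The median log2 value of first-intron peaks less that of all peaks was -0.35, -0.42 and -0.34 in MG and -0.15, -0.28 and -0.26 in BMDM, higher in BMDM by 0.14 without overlap (exact permutation p = 0.1). Promoter peaks within 1 kb took 63.5%, 56.4% and 60.7% of reads in MG and 59.6%, 55.8% and 52.5% in BMDM, so those groups overlapped (exact permutation p = 0.2). Among reads outside promoters, first-intron peaks took 14.9%, 14.1% and 14.4% in MG and 15.9%, 15.2% and 15.1% in BMDM (exact permutation p = 0.1).

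The median log2 value of first-intron peaks less that of promoter peaks was higher in BMDM by 0.61, with MG libraries from -3.07 to -2.74 and BMDM libraries from -2.45 to -1.90 (exact permutation p = 0.1). Less the median of later-intron peaks, it was 0.21 ± 0.07 (SD, n = 3) in MG and 0.24 ± 0.10 in BMDM, a difference of 0.03 (exact permutation p = 0.7). Less the median of distal intergenic peaks, the difference was 0.04 (exact permutation p = 0.7), and both differences changed sign when MG 2 or BMDM 1 was left out. In all, 9 comparisons over libraries were made, and with Benjamini-Hochberg adjustment the smallest exact permutation p became 0.18.

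**Figure D1:**
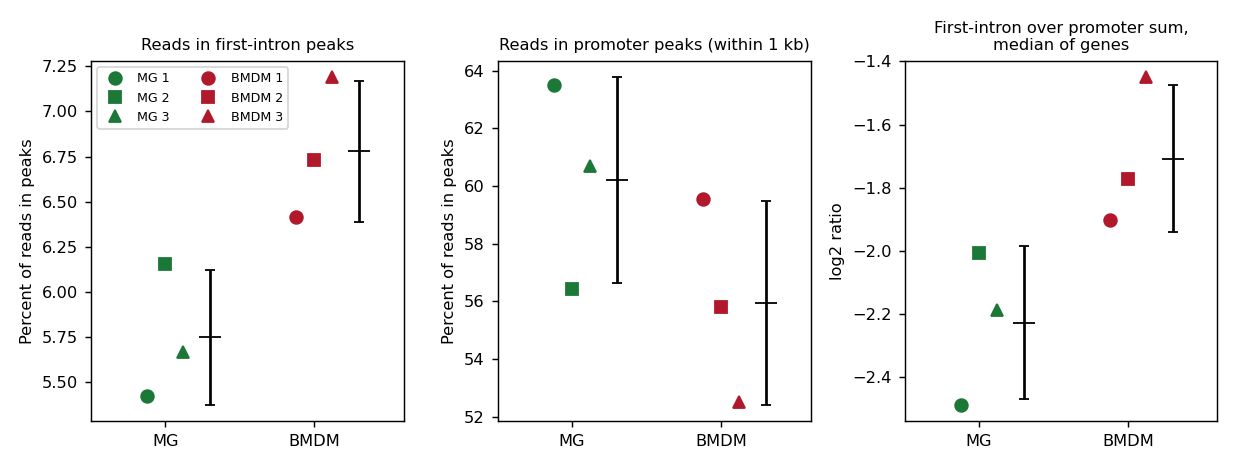
Share of reads in first-intron peaks (left, percent of reads in peaks), share in promoter peaks within 1 kb (middle, percent) and median log2 ratio of first-intron to promoter sum over 3242 genes (right) in each library; symbols are libraries, and bars give the mean and SD of 3 libraries. BMDM libraries lie above MG libraries on the left (6.42% to 7.19% against 5.42% to 6.15%) and on the right, and the groups overlap in the middle.

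Single peaks were compared by limma on log2(normalized count + 1) over all 87944 peaks with a mean normalized count of at least 10. Of the 11148 first-intron peaks, 10483 (94.0%) passed that filter and 665 did not. At an adjusted p under 0.05, 707 first-intron peaks (6.74%) passed in the BMDM direction, against 5.33% of all peaks. In the MG direction 97 passed (0.925%), against 1.54% of all peaks. Later introns gave 6.80% and 0.873%, distal intergenic peaks 6.28% and 1.09%, and promoter peaks within 1 kb 2.12% and 3.25%. The share of first-intron peaks called in either direction was thus near that of other distal classes. No test of the difference between classes was made, as peaks of 1 locus are not independent. In all 804 called peaks the 3 libraries of one group lay above the 3 of the other, a pattern found in 30.2% of tested first-intron peaks and in 29.9% of all tested peaks. Fold changes are given relative to the median peak, which was at -0.14 (log2 BMDM minus MG), while each p-value is for the unshifted difference. The median first-intron peak was at 0.22 relative to it, the median later-intron peak at 0.13 and the median promoter peak at -0.18. On the log2(normalized count + 1) scale the change of low peaks is understated.

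Calls in the 2 directions differed in size, level and width. The median change was 2.13 among peaks called higher in BMDM and -1.40 among those called higher in MG, and 313 of the 707 but 89 of the 97 had a mean above the median tested peak (48.8 normalized counts). BMDM-called peaks were narrower (median 494 bp) than MG-called peaks (840 bp), with 547 bp in tested peaks that were not called. These counts depended on single libraries: without MG 3, BMDM 1 or BMDM 2 limma called 0 in either direction (1402 to 1565 and 410 to 476 at an unadjusted p under 0.05), and without MG 1 it called 1668 and 1224. With BMDM 3 left out it called 350 and 23, and limma voom on whole reads called 0 and 0 (2131 and 592 unadjusted). All 804 peaks kept their sign in each alternative that tested them. Leaving out a library could not change the sign, since the groups did not overlap at any called peak. In the authors' deposited table, an adjusted p under 0.05 was given to 1280 first-intron peaks higher in BMDM and 508 higher in MG, against 9.06% and 5.38% of all peaks there.

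**Figure D2:**
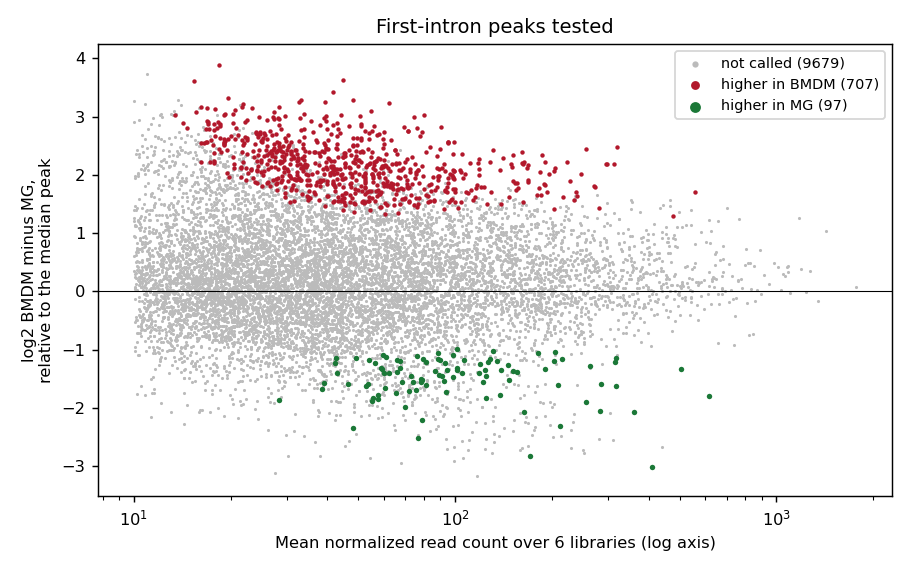
Difference of 10483 first-intron peaks (vertical axis, log2 BMDM minus MG relative to the median peak) against the mean normalized read count over 6 libraries (horizontal log axis); each point is a peak, coloured by its limma call. The 707 peaks called higher in BMDM reach down to low counts, and 89 of the 97 called higher in MG have a mean above 48.8.

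The share of BMDM calls by distance from the nearest start was 5.76% within 5 kb, 6.78% from 5 to 10 kb, 6.96% from 10 to 20 kb, 7.01% from 20 to 50 kb and 6.73% farther out. The share of MG calls was 1.14% within 5 kb (15 peaks) and 0.641% beyond 50 kb (8 peaks). Median levels declined from 50.2 normalized counts within 5 kb to 28.7 beyond 50 kb, so peaks far from a start were also weaker. The called peaks lay at a median of 13700.0 bp (BMDM) and 12310.0 bp (MG) from the nearest start. BMDM calls fell beside 512 genes and MG calls beside 88, and 2 genes had calls in both directions.

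Presence in the authors' peak list of each library, which comes from the same reads and is given as a description, followed the calls. Of the 707 BMDM-called peaks, 413 (58.4%) overlapped no list peak of any MG library and 2 (0.283%) overlapped none of any BMDM library. Of the 97 MG-called peaks, 86 (88.7%) overlapped a list peak in all 3 MG libraries and 43 (44.3%) overlapped none in BMDM. Among all first-intron peaks, 23.3% had no MG list peak and 47.9% no BMDM list peak. The lists differed in length, from 17741 peaks in BMDM 3 to 70739 in MG 2. First-intron peaks made up 10.5%, 10.9% and 10.1% of the listed peaks in MG and 10.2%, 10.9% and 6.55% in BMDM (exact permutation p = 0.6). The BMDM mean was lower by 1.31 percentage points with BMDM 3 and higher by 0.0179 without it.

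Of the BMDM-called peaks, 220 met the rule for naming (mean above the median tested peak, no overlap of the groups, 1 peak a gene, and no Rik, Gm, Mir or LOC name), and the 12 largest of these are described. In the first intron of Stk32c, a serine/threonine kinase gene, the peak at chr7:139151199-139151747 (36.8 kb from the start) held 5.55, 18.6 and 15.6 in MG 1 to 3 and 109, 134 and 90.6 in BMDM 1 to 3. Each BMDM library was several times above each MG library (log2 difference 3.24, SE 0.46, adjusted p = 0.0260 by limma). The Chst12 peak, beside a gene for a sulfotransferase of chondroitin, held 6.35, 27.3 and 27.2 in MG 1 to 3 and 99.2, 203 and 116 in BMDM 1 to 3, with MG 1 the lowest (log2 difference 3.02, SE 0.55, adjusted p = 0.0266 by limma). Nrg1 encodes a ligand of ErbB receptors, and its peak at chr8:31980484-31981181 (27.9 kb from the start) held 3.97, 19.1 and 15.6 in MG 1 to 3 and 101, 102 and 61.6 in BMDM 1 to 3. BMDM 3 was the lowest BMDM library and MG 1 the lowest MG library there (log2 difference 3.02, SE 0.55, adjusted p = 0.0266 by limma). At Ror1, which encodes a receptor tyrosine kinase-like protein that binds Wnt5a, the peak at chr4:100218788-100219990 lay 123 kb into the gene and held 9.52, 30.6 and 15.6 in MG 1 to 3 and 127, 168 and 96.0 in BMDM 1 to 3 (log2 difference 2.99, SE 0.45, adjusted p = 0.0260 by limma).

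App, the amyloid precursor protein gene, had a peak at chr16:85145856-85146190 (27.5 kb from the start) with counts of 9.52, 14.8 and 10.7 in MG 1 to 3 and 93.2, 133 and 45.3 in BMDM 1 to 3. BMDM 3 was the lowest of its group and still above all MG libraries (log2 difference 2.88, SE 0.46, adjusted p = 0.0260 by limma). Foxp1 encodes a forkhead factor known to restrain monocyte differentiation. Its peak at chr6:99261161-99261770, 4.75 kb from the start, held 6.35, 18.6 and 21.4 in MG 1 to 3 and 97.2, 114 and 77.9 in BMDM 1 to 3 (log2 difference 2.84, SE 0.47, adjusted p = 0.0260 by limma). Tnfrsf1b, a TNF receptor gene, had a peak at chr4:145236055-145236387 with 12.7, 23.5 and 18.5 in MG 1 to 3 and 113, 133 and 114 in BMDM 1 to 3, and here the BMDM libraries lay close together (log2 difference 2.83, SE 0.35, adjusted p = 0.0260 by limma). Ksr1, a scaffold of the Ras to MAP kinase cascade, had one at chr11:79131833-79132420 with 18.3, 23.5 and 22.4 in MG 1 to 3 and 117, 175 and 118 in BMDM 1 to 3 (log2 difference 2.74, SE 0.33, adjusted p = 0.0260 by limma). The other 4 named peaks, at Wscd2, Kcna2 (a voltage-gated potassium channel gene), Tmem154 and N4bp1, were higher in BMDM by 2.75 to 2.81 with adjusted p from 0.0260 to 0.0283 (limma). Their counts ran from 7.93 to 39.9 in MG and from 71.4 to 179.4 in BMDM, where the rule for naming had required groups without overlap. For Kcna2 and N4bp1 the intron came from a transcript without a gene ID.

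**Figure D3:**
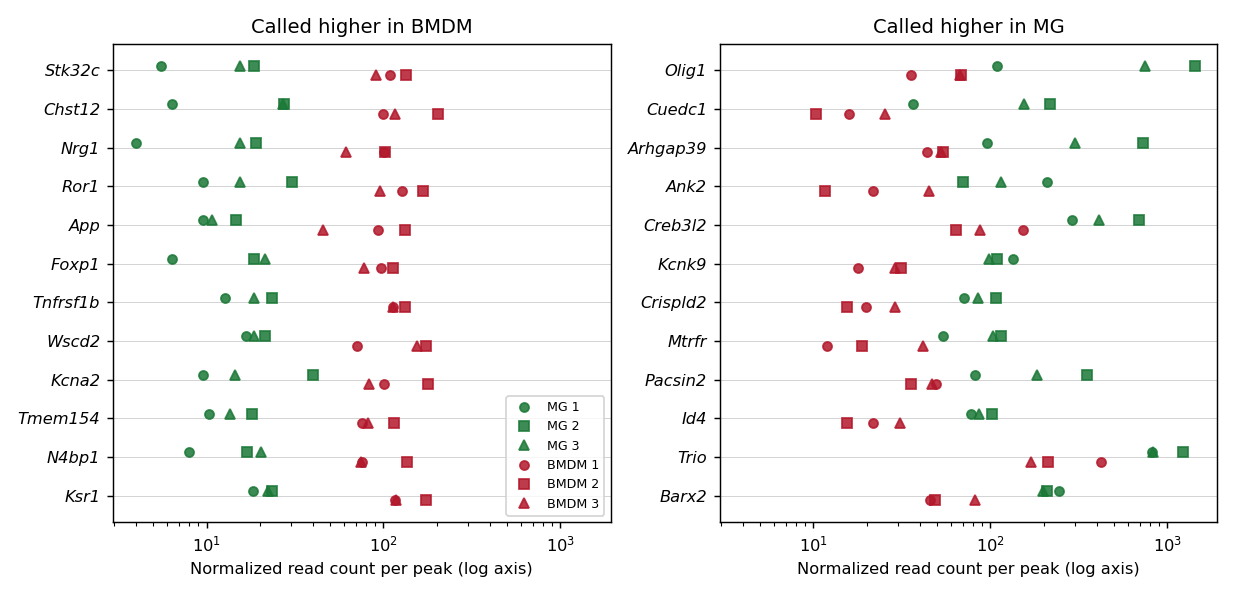
Normalized read count (log axis) in each library for the 12 first-intron peaks with the largest change in each direction among those that met the rule on level and names, named by the nearest start; green symbols are MG and red symbols BMDM libraries. The rule for naming also required that the groups not overlap, so they lie apart at all 24 peaks by selection. MG 1 lies far below MG 2 and MG 3 at Olig1 (109.5 against 1435 and 749).

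In the other direction, 72 MG-called peaks met the same rule, and the 12 with the largest change among them are described. The largest of these was beside Olig1, a transcription factor gene of the oligodendrocyte lineage. Its peak at chr16:91303977-91306406, 34.2 kb from the start in a transcript without a gene ID, held 109.5, 1435 and 749 in MG 1 to 3 and 35.7, 68.0 and 67.0 in BMDM 1 to 3 (log2 difference -3.01, SE 0.77, adjusted p = 0.0422 by limma). MG 1 was far below the other MG libraries and closer to BMDM. Over 44 neural and glial marker genes, of which 19 had a first-intron peak, the summed count of these peaks was 2737, 7725 and 4731 in MG 1 to 3 and 2265, 2093 and 2194 in BMDM 1 to 3. The order of MG libraries was that at Olig1, but the Olig1 peak and the Cspg4 peak described below are part of this sum. Over all peaks of the 42 genes with a peak (none at Sox9 and Gria2) the summed count ranged from 31567.6 to 53079.1 in MG and from 20706.7 to 21664.0 in BMDM. The part of neural and glial signal in the calls of these genes was not tested. Cuedc1 (chr11:88139078-88140237) held 36.5, 217 and 155 in MG 1 to 3 and 15.9, 10.4 and 25.4 in BMDM 1 to 3 and Arhgap39, a gene for a GTPase-activating protein (chr15:76780591-76782070), held 96.0, 727 and 300.3 in MG 1 to 3 and 43.6, 53.7 and 52.5 in BMDM 1 to 3. Both showed the same order, MG 2 above MG 3 above MG 1, with log2 differences of -2.52 and -2.31 (adjusted p = 0.0377 and 0.0418 by limma). Pacsin2, a membrane-bending protein of endocytosis (chr15:83417293-83418265), did so too with 81.7, 351 and 183 in MG 1 to 3 and 49.6, 35.6 and 47.1 in BMDM 1 to 3 (log2 difference -1.83, SE 0.48, adjusted p = 0.0417 by limma).

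At Ank2, Kcnk9 and Barx2 MG 1 was the highest of its group. At Creb3l2, Trio, Id4, Mtrfr and Crispld2 the order was again MG 2 above MG 3 above MG 1, with smaller fold gaps than at the peaks above. Ank2, the ankyrin-B gene, had a peak at chr3:127398107-127398889 that held 209, 70.0 and 115 in MG 1 to 3 and 21.8, 11.7 and 45.3 in BMDM 1 to 3, with MG 1 the highest (log2 difference -2.20, SE 0.54, adjusted p = 0.0359 by limma). Kcnk9 encodes a tandem pore potassium channel whose first intron is the sole intron in the annotation, and its peak at chr15:72516906-72517486 held 135, 109 and 98.2 in MG 1 to 3 and 17.9, 31.1 and 29.0 in BMDM 1 to 3 (log2 difference -1.98, SE 0.35, adjusted p = 0.0260 by limma). The MG libraries were within a narrow range there. Creb3l2, a membrane-bound bZIP transcription factor gene, had a peak at chr6:37418218-37420156 with 289, 694 and 410.1 in MG 1 to 3 and 153, 64.1 and 87.0 in BMDM 1 to 3 (log2 difference -2.05, SE 0.42, adjusted p = 0.0274 by limma). Trio, a guanine nucleotide exchange factor gene, held the strongest of the 12 by MG minimum, at chr15:27936755-27938515 with 817, 1235 and 838 in MG 1 to 3 and 425, 211 and 170.3 in BMDM 1 to 3 (log2 difference -1.79, SE 0.39, adjusted p = 0.0288 by limma). At Barx2, a homeobox gene, the peak at chr9:31996830-31998219 lay 83.4 kb from the start, in a transcript without a gene ID, and held 244, 209 and 198 in MG 1 to 3 and 45.6, 48.6 and 81.5 in BMDM 1 to 3 (log2 difference -1.78, SE 0.33, adjusted p = 0.0260 by limma). Id4, an inhibitor of helix-loop-helix factors, named a peak in the intron of the neighbouring A330033J07Rik (chr13:48227764-48228385) with 77.7, 102 and 86.5 in MG 1 to 3 and 21.8, 15.5 and 30.8 in BMDM 1 to 3 (log2 difference -1.83, SE 0.36, adjusted p = 0.0260 by limma). Mtrfr, a mitochondrial translation gene, held 53.9, 115 and 103 in MG 1 to 3 and 11.9, 18.8 and 41.7 in BMDM 1 to 3 (log2 difference -1.84, adjusted p = 0.0438 by limma). MG 1 was nearer to BMDM 3 than to the other MG libraries there. Crispld2, whose peak fell in the Galnt2 transcript model, was at -1.88 (adjusted p = 0.0260 by limma).

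Several genes, picked by their number of calls after the values were seen, carried many called first-intron peaks. Sgms2, a sphingomyelin synthase gene, had 7 of 9 tested peaks called higher in BMDM, all 9 above the median peak (0.46 to 2.92) and spread from 11.1 to 28.3 kb from the nearest start. The strongest, at chr3:131474359-131475092, held 172, 72.7 and 117 in MG 1 to 3 and 744, 449 and 319 in BMDM 1 to 3 (log2 difference 2.19, SE 0.42, adjusted p = 0.0287 by limma). Vav3 encodes a guanine nucleotide exchange factor that acts in macrophage adhesion and phagocytosis, and all 5 of its peaks were called, between 1.98 and 2.90. At the strongest of them, chr3:109361569-109362416, counts were 22.2, 24.6 and 26.2 in MG 1 to 3 and 173, 130.1 and 65.2 in BMDM 1 to 3. Foxp1 had 7 of 19 peaks called higher in BMDM over 3.54 to 77.4 kb, but its range reached from -1.30 to 2.84, and 17 of 19 were above the median peak. Cmip, an adaptor gene of T cell signalling, had 6 of 25 called and all 25 above the median peak (0.61 to 2.43). Further genes with 4 or more calls were Galnt2 (5 of 18), Gfod1 (5 of 10), Hpcal1 (5 of 11), Tmcc3 (5 of 22), Grap2 (4 of 6), Pde4d (4 of 5), Zfp36l1 (4 of 6), Atp2b4, a plasma membrane calcium pump gene (4 of 4), and Cd47, whose product restrains phagocytosis (4 of 8). At Cd47 and Zfp36l1 all these peaks lay in introns of a transcript without a gene ID, so that the gene names only the nearest start. Morrbid, a long noncoding RNA gene that supports survival of short-lived myeloid cells, had 4 of 22 called and all 22 above the median peak.

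Runs of MG-called peaks were shorter. Gab1 had 4 of 15 tested peaks called higher in MG, with 14 of 15 below the median peak (-1.87 to 0.07) over 3.45 to 26.2 kb. The called Gab1 peak nearest to the start, at chr8:80873838-80874701, held 156, 98.4 and 123 in MG 1 to 3 and 33.7, 33.7 and 41.7 in BMDM 1 to 3 (log2 difference -1.61, SE 0.32, adjusted p = 0.0260 by limma). Creb3l2 (2 of 5 called), Nav3, a neuron navigator gene also used as a microglia marker (2 of 9), and Cadm1, an adhesion molecule gene (2 of 26), had 2 calls each. All 5 Creb3l2 and all 9 Nav3 peaks were below the median peak, and 3 of 26 at Cadm1 were above it. Kcnma1 (2 of 6) and 4930511A08Rik (2 of 15) had as many. Of the 512 genes with BMDM calls, 393 had 1 called peak, 70 had 2 and 35 had 3, while 81 of the 88 genes with MG calls had 1. Gse1, the gene with the most first-intron peaks, had 3 BMDM calls and 1 MG call in 48 tested peaks, and Ext1 and Fmnl2 had 2 and 1 BMDM calls in 27 and 26.

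**Figure D4:**
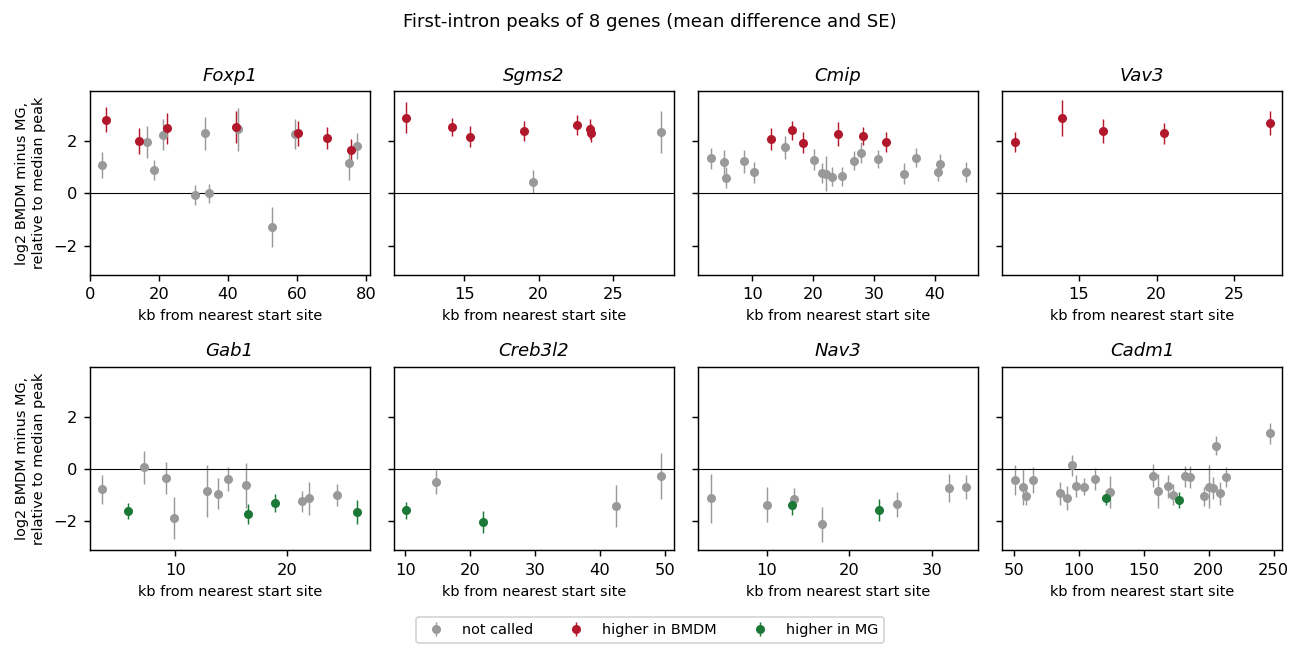
Difference of each tested first-intron peak (vertical axis, log2 BMDM minus MG relative to the median peak, mean and SE from limma) against its distance in kb from the nearest start site for 8 genes; colours give the call. All 5 Vav3 peaks and 7 of 9 Sgms2 peaks are called higher in BMDM, all 25 Cmip peaks lie above 0, and Gab1 has 4 of 15 called higher in MG.

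Summing the first-intron peaks of each gene gave 3959 tested sums, fitted together with the sums of all other annotation classes (44709 sums). Of the 3959, 199 were called higher in BMDM by limma, where the background was 3.16% of all sums, and 35 were called higher in MG, where it was 1.93%. Each count was 0 without MG 3, BMDM 1 or BMDM 2 (466 to 512 and 179 to 206 at an unadjusted p under 0.05), and limma voom called 98 and 11. Without MG 1 limma called 499 and 517. Changes of sums are relative to the median sum, at -0.21. Among those named by rule, Nectin1, an adhesion molecule gene, summed over 4 peaks to 23.8, 61.2 and 33.0 in MG 1 to 3 and 190.4, 265 and 127 in BMDM 1 to 3 (log2 difference 2.53, SE 0.41, adjusted p = 0.0207 by limma). Vav3 summed to 57.9, 100 and 80.7 in MG 1 to 3 and 496, 439.7 and 252 in BMDM 1 to 3 (log2 difference 2.49, SE 0.34, adjusted p = 0.0192 by limma), and Gda, the guanine deaminase gene, to 55.5, 66.1 and 58.3 in MG 1 to 3 and 345, 359 and 178 in BMDM 1 to 3 (log2 difference 2.42, SE 0.33, adjusted p = 0.0192 by limma). In each of these 3 the lowest BMDM library was above the highest MG library by more than the range of MG. Pde4d, a cAMP phosphodiesterase gene, summed over 5 peaks to 27.8, 96.2 and 52.5 in MG 1 to 3 and 286, 267 and 178 in BMDM 1 to 3, and Atp2b4 over 4 to 62.7, 154 and 87.5 in MG 1 to 3 and 450.3, 685 and 255 in BMDM 1 to 3. Zfp800, Ptchd3 and Cyfip2 completed the 8, and the 8 changes ran from 2.29 to 2.53 with adjusted p from 0.0192 to 0.0244 (limma).

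Sums higher in MG were smaller in size of change. Kcnk9 gave 299, 170.0 and 202 in MG 1 to 3 and 49.6, 60.9 and 72.5 in BMDM 1 to 3 (log2 difference -1.62, SE 0.32, adjusted p = 0.0204 by limma), and Creb3l2 gave 888, 1801 and 1137 in MG 1 to 3 and 470.1, 247 and 359 in BMDM 1 to 3 (log2 difference -1.60, SE 0.36, adjusted p = 0.0246 by limma). Gata2, a zinc finger factor of early haematopoietic cells, had a single peak with 230.1, 241 and 221 in MG 1 to 3 and 97.2, 60.9 and 85.2 in BMDM 1 to 3 (log2 difference -1.31, SE 0.29, adjusted p = 0.0223 by limma). The MG values of Gata2 lay close together. Gab1 summed over 15 peaks to 676, 1271 and 828 in MG 1 to 3 and 234, 309 and 424 in BMDM 1 to 3 (log2 difference -1.30, SE 0.34, adjusted p = 0.0340 by limma), and Nav3 over 11 peaks to 1031, 578 and 631 in MG 1 to 3 and 279.7, 208 and 319 in BMDM 1 to 3 (log2 difference -1.23, SE 0.32, adjusted p = 0.0325 by limma). Barx2, Wdr88 and Lrfn1 completed the 8 named sums, at -1.60, -1.27 and -1.18 relative to the median sum (adjusted p = 0.0210, 0.0221 and 0.0330 by limma).

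The first intron and the promoter of a gene often differed in the size of their change. Of the 199 sums called higher in BMDM, 168 had a tested promoter sum within 1 kb, and 17 of those promoters were called in the same direction and 3 in the other. The median change was 2.03 in the first introns, which the call selected, and 0.20 at the promoters. Zfp800 promoter counts, for one, were 1000, 758 and 812 in MG 1 to 3 and 807, 889.7 and 614 in BMDM 1 to 3, with no group apart (log2 difference 0.05, adjusted p = 0.778 by limma). Nectin1 promoter counts, 367, 120.3 and 212 in MG 1 to 3 and 155, 249 and 145 in BMDM 1 to 3, overlapped too (log2 difference -0.04, adjusted p = 0.747 by limma). Among the 7 of these 8 genes with a tested promoter sum, only that of Gda was called. It was 58.7, 58.5 and 57.3 in MG 1 to 3 and 294, 260.3 and 154 in BMDM 1 to 3 and rose with its intron (log2 difference 2.16, adjusted p = 0.0194 by limma). The promoter sums of Vav3, Atp2b4, Cyfip2 and Pde4d were also above the median sum, at 0.99, 0.86, 0.74 and 0.51. They did not pass (adjusted p from 0.241 to 0.590 by limma). Of the 35 sums called higher in MG, 26 had a tested promoter, 9 of them called higher in MG and 0 called higher in BMDM. The medians were -1.14 in the first introns and -0.54 at the promoters. As a background, 3.16% of sums of all classes passed limma in the BMDM direction and 1.93% in the MG direction. Of single promoter peaks within 1 kb, 2.12% and 3.25% did so. The share for promoter sums alone is not given here, and whether promoters beside called first introns exceed it was not tested. Gab1 promoter counts of 994, 1292 and 1025 in MG 1 to 3 and 411, 372 and 266 in BMDM 1 to 3 and Nav3 promoter counts of 199, 855 and 475 in MG 1 to 3 and 105, 70.6 and 138 in BMDM 1 to 3 fell with their introns (log2 difference -1.46, adjusted p = 0.0205 and log2 difference -1.88, adjusted p = 0.0354 by limma), whereas Creb3l2 promoter counts of 1288, 1105 and 1065 in MG 1 to 3 and 1335, 1076 and 679 in BMDM 1 to 3 overlapped.

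The ratio of first-intron to promoter sum within a library does not depend on how libraries are scaled. Over 3242 genes its median log2 value was -2.49, -2.01 and -2.19 in MG 1 to 3 and -1.90, -1.77 and -1.45 in BMDM 1 to 3. BMDM libraries were higher without overlap, by 0.52 on average (exact permutation p = 0.1). By gene, the median difference was 0.43, and limma called the ratio higher in BMDM for 292 genes (9.01% of those tested) and higher in MG for 14 (0.432%). Of the 168 genes with a first-intron sum called higher in BMDM and a tested promoter, 98 had a ratio called higher in BMDM, though the call on the first-intron sum, which is the numerator, had selected them. For the 26 in the MG direction limma called 0 ratios. Among the named genes, the ratio was called for Zfp800 (log2 difference 2.48, adjusted p = 0.0211 by limma), Cyfip2 (1.54, adjusted p = 0.0446) and Vav3 (adjusted p = 0.0289). These counts too depended on single libraries: they were 0 and 0 without MG 3 or BMDM 2, 13 and 0 without BMDM 1, and 3 and 0 without BMDM 3 (560 to 821 and 47 to 117 at an unadjusted p under 0.05 in these 4 fits).

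**Figure D5:**
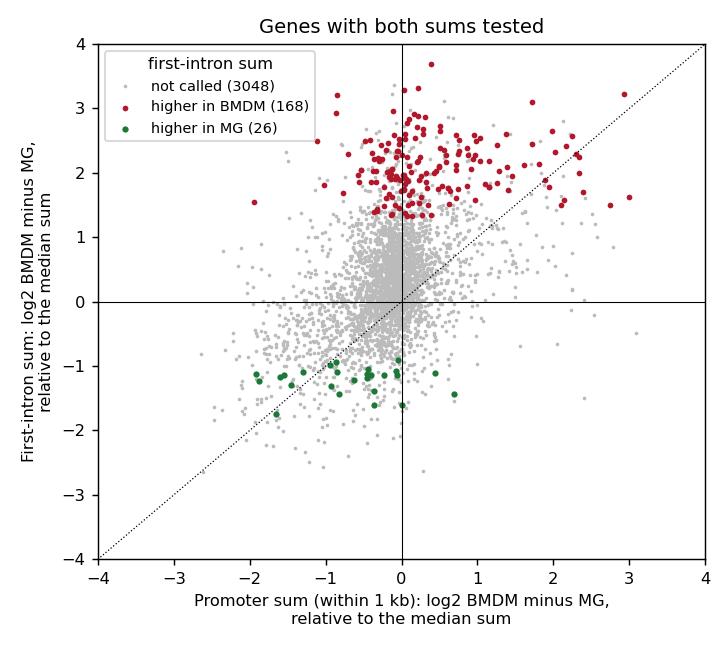
Change of the summed first-intron peaks (vertical axis) against change of the summed promoter peaks within 1 kb (horizontal axis) for 3242 genes, both as log2 BMDM minus MG relative to the median sum; colours give the call of the first-intron sum and the dotted line marks equal change. The 168 genes called higher in BMDM spread around a promoter change of 0.20, far above the dotted line, and the 26 called higher in MG have a median promoter change of -0.54.

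Genes of the origin of the cells were read as lists chosen with earlier results of these data known, and each list is described by counts and medians beside the 6.74% and 0.925% of first-intron peaks called. At an unadjusted p under 0.05 (limma), 2092 of all 10483 tested first-intron peaks passed in the BMDM direction and 743 in the MG direction. Without BMDM 3, limma called 3.41% and 0.224% of first-intron peaks. Monocyte and macrophage identity genes had 24 tested first-intron peaks at 11 genes, of which 9 were called in the BMDM direction and 0 in the MG direction by limma (16 and 0 at an unadjusted p under 0.05), with a median of 1.22 relative to the median peak. They belonged to Cd44, Gda, Runx2 and Plac8. Cd44, the hyaluronan receptor gene, had 3 called peaks, the strongest at chr2:102886720-102888177 with 111, 62.9 and 70.0 in MG 1 to 3 and 440.4, 328 and 219 in BMDM 1 to 3 (log2 difference 2.13, SE 0.36, adjusted p = 0.0260 by limma). A further Cd44 peak, stronger in all, held 105, 418 and 188 in MG 1 to 3 and 401, 455 and 199 in BMDM 1 to 3 and did not pass (adjusted p = 0.429 by limma). Runx2, a factor gene also used as a marker of plasmacytoid dendritic cells, had both of its peaks called, the one at chr17:44727774-44728241 with 7.93, 33.3 and 15.6 in MG 1 to 3 and 69.4, 104 and 74.3 in BMDM 1 to 3 (log2 difference 2.39, SE 0.49, adjusted p = 0.0326 by limma). Plac8 held 12.7, 9.84 and 11.7 in MG 1 to 3 and 33.7, 58.3 and 36.2 in BMDM 1 to 3 (log2 difference 1.92, SE 0.42, adjusted p = 0.0391 by limma). Fgr, a Src family kinase gene, and Runx3 had strong peaks that did not pass, at 1.07 and 0.29, as did Cd300lf, an inhibitory receptor gene, at 0.49. Without BMDM 3 limma called 6 of 23 peaks of the list. First-intron sums of the list's genes were 1981, 1856 and 1463 in MG 1 to 3 and 4019, 3796 and 2243 in BMDM 1 to 3, and BMDM 3 was the nearest to MG.

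Microglia identity genes showed both directions. Of 91 tested peaks at 21 genes, 1 passed in the BMDM direction and 3 in the MG direction by limma (4 and 14 at an unadjusted p under 0.05). The median was -0.25, and it was -0.03 without MG 1 and -0.54 without MG 2. Nav3 held 2 of the MG calls, at chr10:109917070-109917905 with 93.6, 108 and 75.8 in MG 1 to 3 and 39.7, 20.7 and 36.2 in BMDM 1 to 3 and at chr10:109976096-109976707 with 110.3, 48.7 and 57.3 in MG 1 to 3 and 19.8, 14.3 and 27.2 in BMDM 1 to 3 (-1.40 and -1.59, adjusted p = 0.0383 and 0.0427 by limma). Sall3, a zinc finger factor gene related to Sall1, held 128, 264 and 163 in MG 1 to 3 and 65.5, 57.6 and 65.2 in BMDM 1 to 3 (log2 difference -1.35, SE 0.34, adjusted p = 0.0359 by limma). Smad3, the TGF-beta signal transducer, had a peak called higher in BMDM with 74.6, 37.7 and 46.7 in MG 1 to 3 and 177, 143 and 105 in BMDM 1 to 3 (log2 difference 1.56, SE 0.36, adjusted p = 0.0453 by limma), beside a stronger one that held 970.2, 376 and 523 in MG 1 to 3 and 724, 756 and 417 in BMDM 1 to 3 and did not pass. Inpp5d and Entpd1, which encode a lipid phosphatase and an ectonucleotidase, were at 0.27 and 1.11 and did not pass (adjusted p = 0.862 and 0.151 by limma). Rhob, a small GTPase gene, was at -0.34 and did not pass either. Counts under library totals were 3 and 0 (limma), where 10.4% and 0.472% of all first-intron peaks were called. Without BMDM 3 they were 0 and 0, where 3.41% and 0.224% were called. Cyclic loess gave 2 and 5, where 9.59% and 1.46% were called. Without MG 1 limma called 4 and 7, where 15.8% and 11.6% were called. Without MG 2 it called 1 and 9, where 11.62% and 2.245% were called. The number of MG calls in this list thus depended on the scaling and on the libraries used, as did MG calls over all first-intron peaks.

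Transcription factor genes of myeloid cells had 246 tested first-intron peaks at 43 genes, with a median of 0.44. Limma called 29 in the BMDM direction (11.8%) and 0 in the MG direction (73 and 4 unadjusted). The calls fell in 14 genes, and only at Runx2 and Pparg was the strongest peak of the gene among those called. Foxp1 gave 7 of them and Zfp36l1, an RNA-binding protein gene placed in this list, gave 4, at introns of a transcript without a gene ID. Etv6 and Irf8 gave 3 each, and Runx2 and Foxo1 gave 2 each. Pparg, a nuclear receptor of lipid handling, had a single peak at chr6:115375029-115375911 with 15.1, 32.8 and 20.4 in MG 1 to 3 and 65.5, 129.5 and 67.0 in BMDM 1 to 3 (log2 difference 2.02, SE 0.42, adjusted p = 0.0339 by limma). Stat5b held 24.6, 14.8 and 41.8 in MG 1 to 3 and 101, 96.5 and 96.0 in BMDM 1 to 3, and Stat3, which carries cytokine signals, held 11.1, 11.5 and 17.5 in MG 1 to 3 and 39.7, 62.2 and 50.7 in BMDM 1 to 3 at chr11:100921384-100921698; both rose (2.07 and 1.99, adjusted p = 0.0296 and 0.0322 by limma). Mitf, Klf3, Ikzf1 and Hif1a each had 1 called peak, between 1.82 and 2.41. Those of Klf3, Ikzf1 and Hif1a lay in introns not assigned to a named gene. The strongest first-intron peak of the series was in Bach2, a repressor related to the AP-1 family, at chr4:32249015-32251554. It held 2259, 1424 and 1642 in MG 1 to 3 and 2210.0, 2084 and 1015 in BMDM 1 to 3, with overlapping groups (0.08, adjusted p = 0.945 by limma), and the strongest peaks of Bcl6, Atf3 and Fos likewise did not pass (0.20, 0.48 and -0.17). Without MG 1 the list gave 61 and 5 calls in 246 peaks, where 15.8% and 11.6% of all first-intron peaks were called. Without BMDM 3 it gave 8 and 0 in 243, where 3.41% of all first-intron peaks were called in the BMDM direction.

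The study's subject being lactate and histone acylation, genes of these processes were read too. Glycolysis and lactate genes had 20 tested peaks at 7 genes, and limma called 0 in either direction (3 and 2 unadjusted), with a median of 0.45. Hk2, the hexokinase gene, was at 0.22, Slc2a1, a glucose transporter gene, at 0.29, Pfkfb3 at 0.03, and Slc16a7, a monocarboxylate transporter gene, at -0.57. Slc2a1 counts were 58.7, 80.4 and 64.1 in MG 1 to 3 and 101, 73.8 and 56.2 in BMDM 1 to 3, with full overlap of the groups. Among 25 peaks of lysine acyltransferase and deacylase genes, 3 were called in the BMDM direction and 0 in the other by limma (4 and 1 unadjusted), all in Hdac7, a class IIa histone deacetylase gene. The strongest called one, at chr15:97821007-97821827, held 60.3, 88.0 and 74.8 in MG 1 to 3 and 309.5, 380.1 and 188 in BMDM 1 to 3 (log2 difference 2.06, SE 0.35, adjusted p = 0.0260 by limma). The Hdac7 peak with the highest level overall held 305, 356 and 307 in MG 1 to 3 and 397, 512 and 252 in BMDM 1 to 3 and did not pass (adjusted p = 0.746 by limma). Crebbp, Ncoa3 and Sirt1 had peaks at 0.24, -0.14 and -0.31 that did not pass.

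Immunosuppressive mediator genes had 18 tested peaks, 2 of them called higher in BMDM, and a median of 1.01. Il1rn, the gene of the interleukin-1 receptor antagonist, held 58.7, 129 and 74.8 in MG 1 to 3 and 311, 418 and 149 in BMDM 1 to 3 at chr2:24341316-24342002 (log2 difference 1.82, SE 0.44, adjusted p = 0.0495 by limma), and Stat3 gave the other call. BMDM 3 was the lowest of its group at Il1rn and close to MG 2. Cd86 and Il4ra, a costimulatory ligand and a cytokine receptor gene, were at 0.83 and 0.53 and did not pass, nor did Ptges, a prostaglandin E synthase gene, at 1.10. Without BMDM 3 limma called 1 of 18 peaks, where 3.41% of all first-intron peaks were called in the BMDM direction. Hypoxia genes had 5 of 21 tested peaks called higher in BMDM, with a median of 1.17. Ndrg1, a gene induced by low oxygen, gave 3, the strongest at chr15:66998094-66998978 with 70.6, 154 and 83.6 in MG 1 to 3 and 385, 479.8 and 198 in BMDM 1 to 3 (log2 difference 1.90, SE 0.42, adjusted p = 0.0392 by limma). All 3 lay in introns not assigned to a named gene, so Ndrg1 names only the nearest start. Mxi1, a MYC antagonist gene, held 65.8, 25.1 and 48.6 in MG 1 to 3 and 248, 109 and 138 in BMDM 1 to 3 (log2 difference 1.95, SE 0.44, adjusted p = 0.0403 by limma), and Hif1a gave the fifth, while Egln3, an oxygen sensor gene, was at 0.68 without passing. The called Hif1a peak likewise lay in an intron not assigned to a named gene. Without BMDM 3 limma called 2 of 21 hypoxia peaks. Among 14 peaks of PERK and stress response genes, Ern1, the sensor gene of another branch of the unfolded protein response, gave the 1 call with 31.7, 41.0 and 24.3 in MG 1 to 3 and 103, 129.5 and 61.6 in BMDM 1 to 3 (log2 difference 1.67, SE 0.38, adjusted p = 0.0433 by limma), while Slc7a11 (1.49, adjusted p = 0.0866 by limma) and Atf6 (0.28) missed it. In 27 peaks of integrin and adhesion genes the 3 calls were those of Cd44, and Itgb2, the gene of the shared leukocyte integrin chain, held 822, 417 and 499.5 in MG 1 to 3 and 989.9, 857 and 491 in BMDM 1 to 3 without passing (0.56). Itga5 and Itgb5, genes of other integrin chains, were at -0.07 and -0.73 and did not pass either.

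Marker genes of other cell types were read as well, in cells that both gates took as F4/80+ CD11b+ and without LY6G. The share of other cells left after sorting was not measured here. Neural and glial genes had 53 tested peaks with a median of -0.85, 2 called higher in BMDM (Mbp and Slc1a2) and 2 higher in MG (Olig1 and Nfia). Without MG 1 limma called 29 of 57 in the MG direction, where 11.6% of all first-intron peaks were called. Without MG 2 it called 6 of 47, where 2.245% were. Slc1a2, a glutamate transporter gene of astrocytes, held 13.5, 18.04 and 11.7 in MG 1 to 3 and 105, 58.3 and 32.6 in BMDM 1 to 3 at its called peak (log2 difference 2.11, SE 0.47, adjusted p = 0.0397 by limma). Cspg4, a proteoglycan gene of oligodendrocyte precursors and pericytes, held 77.0, 947 and 498 in MG 1 to 3 and 55.5, 40.2 and 59.8 in BMDM 1 to 3 and did not pass (-2.54, adjusted p = 0.0579 by limma), with the same order of MG libraries as Olig1. Nfia, a nuclear factor of glia, had its called peak in the first intron of the neighbouring E130114P18Rik, at chr4:97745603-97746512, with 106, 218 and 131 in MG 1 to 3 and 49.6, 46.6 and 58.0 in BMDM 1 to 3 (log2 difference -1.35, SE 0.35, adjusted p = 0.0372 by limma). Endothelial and mural genes had 14 tested peaks, 0 called by limma in either direction (2 and 3 unadjusted) and 0 and 6 without MG 1, where 11.6% of all first-intron peaks were called in the MG direction. Strong peaks at Pecam1, Flt1 and Kdr were at -0.19, -0.54 and 0.58. Their summed first-intron count was 740.1, 2364 and 1489.8 in MG 1 to 3 and 698, 738 and 609 in BMDM 1 to 3, highest in MG 2. The Cspg4 peak above is part of this sum, since the gene is on both lists. Over all peaks of 15 of these 16 genes it ranged from 8880.1 to 10608.3 in MG and from 7210.2 to 9611.0 in BMDM, and Rgs5 had no peak.

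Peaks at lymphocyte and dendritic cell genes were called in the BMDM direction. T, NK and B cell genes had 4 of 24 tested peaks called higher in BMDM, 3 of them in Prkcq, a protein kinase C of T cells, and 1 in Bcl11b. Without BMDM 3 limma called 1 of 23, where 3.41% of all first-intron peaks were called in the BMDM direction. The Prkcq peak at chr2:11187034-11187581 held 26.2, 33.9 and 39.9 in MG 1 to 3 and 83.3, 93.9 and 85.2 in BMDM 1 to 3 (log2 difference 1.52, SE 0.32, adjusted p = 0.0364 by limma). Lck, Tox and Ms4a1 were at 1.66, 0.95 and 0.83 and did not pass. Summed over the first-intron peaks of these genes, counts were 544, 699 and 633 in MG 1 to 3 and 1053, 1309.9 and 1007 in BMDM 1 to 3. Over all peaks of 27 of the 30 genes they ranged from 7652.1 to 9229.2 in MG and from 10511.6 to 14462.8 in BMDM, and Cd3g, Cd8a and Cd79a had no peak. Dendritic cell genes had 4 of 10 tested peaks called higher in BMDM, at Itgae, Zbtb46 and Runx2, with a median of 1.35, and 1 of 9 without BMDM 3. Itgae, an integrin gene of dendritic and T cells, held 19.0, 28.4 and 33.0 in MG 1 to 3 and 85.3, 99.1 and 77.9 in BMDM 1 to 3 (log2 difference 1.83, SE 0.34, adjusted p = 0.0287 by limma), and Flt3 held 53.2, 153 and 99.1 in MG 1 to 3 and 264, 396 and 145 in BMDM 1 to 3 without passing (adjusted p = 0.0968 by limma). Ccr7 was at 0.57 and did not pass. Zbtb46, a zinc finger gene of conventional dendritic cells, held 6.35, 7.11 and 4.86 in MG 1 to 3 and 53.6, 37.6 and 34.4 in BMDM 1 to 3 (log2 difference 2.72, SE 0.48, adjusted p = 0.0262 by limma), near the limit of 3 reads in MG. The summed dendritic count was 395, 508 and 449 in MG 1 to 3 and 837, 1175 and 685 in BMDM 1 to 3. Over all peaks of 9 of the 12 genes it ranged from 9319.9 to 10750.7 in MG and from 8043.6 to 11401.4 in BMDM, and Xcr1, Cd209a and Spib had no peak. Neutrophil genes had 3 tested peaks and 0 calls by limma (1 and 0 unadjusted), with Il1r2 at 0.97 and Padi4 at 0.10. Their summed count over all peaks of 14 of 18 genes was 2762.9 to 3435.0 in MG and 3527.2 to 5357.5 in BMDM, with no peak at Elane, Lcn2, Retnlg and Cd177. The part of other cells in the differences of first-intron peaks was not tested.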

How the data were processed

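Accessibility was measured by ATAC-seq in 3 MG and 3 BMDM libraries (lysed cells, Tn5 transposition, PCR). The submitters' processing notes name the build mm10 and the tools DESeq2 1.36.0, ChIPseeker 1.32.1, MACS2 2.1.1.20160309, Bowtie2 2.4.1 and cutadapt 1.8.1, without their settings. The authors deposited a table of 93084 lines for 92929 distinct peaks, of which 155 lines repeated a peak and 65 peaks without annotation were left out. Its 6 library columns hold log2 values that the authors made with a variance-stabilising transform, as judged from the values, whose inverse gave the deposited mean within a relative difference of 2.4e-06. That table also holds the authors' mean signal per peak and, per the file headers, their log2 fold changes with a test score and p-values. The authors' peak list of each library, as deposited, gives fold enrichment (a ratio over background), −log10 p-values and a score per peak, per the file headers' standard order of columns. Positions were used here, and −log10 q-values (at least 5) in 1 alternative for the share of listed peaks, where the difference was -1.39 percentage points. Another 8 library columns in the table match no sample here and were not used. Depth could be read from the values: normalized counts from that inverse, times the size factor given by their smallest steps, came out as integers (tolerance 0.02 read) in 99.9989% or more of the values of each library.

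Samples were grouped by the labels. limma 3.58.1 (R 4.3.3) with a mean trend was run on log2(normalized count + 1) over all peaks with a mean of at least 10, with Benjamini-Hochberg adjustment. Gene sums were fitted the same way. Ratios were fitted without the mean trend, and their p-values were adjusted over the 3242 genes. The fit was tested on simulated data. Overlaps used bedtools 2.31.1 (1 bp), and tables and figures Python 3.11.15, pandas 2.3.3, numpy 2.4.6 and matplotlib 3.10.9. RefSeq promoter windows (GRCm38.p6) supplied sequences. Named peaks were the 12 largest changes in each direction (8 for gene sums) among those past an adjusted p of 0.05, above the median level, without overlap of groups, 1 a gene, without Rik, Gm, Mir and LOC names. In each list, genes with a call and up to 4 with the strongest peaks were named. Members and lists were chosen with earlier results of these data known. The ratio to promoters, the other reference classes, the share outside promoters and the fit without the long Galnt2 model were added after seeing the data. Alternatives changed the scaling, pseudocount (5), filter (none or 30), tool (voom), replicate block and the libraries used.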

Additional observations from a re-analysis of the deposited data

How the results depend on the processing

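Counts of calls are given as higher in BMDM, then higher in MG. For first-intron peaks (707 and 97), library totals gave 1105 and 50, so that BMDM calls were 95.7% of calls rather than 87.9%. Cyclic loess gave 1005 and 153, voom 0 and 0, and the authors' deposited adjusted p 1280 and 508. For gene sums (199 and 35), library totals gave 345 and 19, loess 508 and 43, and voom 98 and 11. The median peak was at -0.14 under the authors' size factors, 0.05 under library totals and -0.10 under loess. Leaving out 1 library in turn gave 0 to 1668 and 0 to 1224 peaks, 0 to 499 and 0 to 517 sums, and 0 to 235 and 0 to 44 ratios of first intron to promoter. It moved the difference in the share of reads from 0.825 to 1.23 percentage points, in the share of listed peaks from -2.14 to 0.0179, in the first-intron less later-intron median from -0.0212 to 0.0806, and in the first-intron less intergenic median from -0.0321 to 0.122. The last 3 reversed: the first without BMDM 3, and the medians without MG 2 (-0.004 and -0.0258) or BMDM 1. The cause was not tested. A pseudocount of 5, no filter and a filter at 30 kept both counts of peaks and of sums within 1.5 times. Leaving out the peaks of the long Galnt2 model gave 689 and 91. Of the 24 named peaks, 18 kept their call under library totals, 23 under loess, 15 without BMDM 3 and 0 under voom or without MG 3, BMDM 1 or BMDM 2. None changed sign, which leaving out a library could not bring about, as named peaks had groups without overlap by rule.

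Replicate numbers were shared between the groups, and whether they pair the libraries is not stated. Deviations of same-numbered libraries correlated at 0.44, -0.06 and 0.36. MG 1 and MG 3 correlated best with the BMDM library of their own number, and MG 2 with BMDM 3 (0.42). With 3 libraries in each group such correlations cannot settle the pairing. With the number as a replicate block, calls were 1396 and 480 peaks, 536 and 317 sums, and 233 and 10 ratios, and the difference in the share of reads was 1.03 percentage points. Depth limits the weakest peaks, where 3 reads stand for 1.64 to 5.95 normalized counts.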
